A study of Mus musculus with 10 samples.

Results

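The core circadian clock, taken as 10 of the 39017 genes in the deposited table, was followed through RNA sequencing of mouse lung tumours with and without conditional deletion of the glucose transporter Glut1. The 10 were the activators Arntl, Clock and Npas2, the repressors Per1, Per2, Per3 and Cry1, the nuclear receptors Nr1d1 and Nr1d2, and the output factor Dbp. Each was chosen by its gene symbol alone, each symbol occurred once in the table, and all 10 passed the filter on low counts that left 15922 genes for testing.

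The clock is a feedback loop of transcription that runs in nearly every mammalian cell, lung epithelium included, with a period of about a day. Arntl (also called Bmal1) pairs with Clock or with its relative Npas2, and the pair activates genes that carry E-box sequences, among them Per, Cry, Nr1d1, Nr1d2 and Dbp. The Per and Cry proteins then repress that pair, while Nr1d1 and Nr1d2 (the REV-ERB receptors) repress Arntl and Npas2. As a result Arntl and Npas2 messenger RNA peak about opposite to Nr1d1, Dbp and Per3, with Per2 somewhat later than Nr1d1 and Cry1 later still. Per1 and Per2 also respond quickly to stimuli such as glucocorticoids.

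Promoter windows are shown for 5 members because they hold the letters of the motifs through which its arms are known to act. The sequences came from RefSeq on GRCm38.p6, each running 5′ to 3′ on the strand of the gene from 250 bases before the transcript start to 50 after it, and 9 of the 10 members matched with 13 such windows in all. Capitals mark the motifs searched on both strands. These were the E-box CACGTG, an E-box variant CACGTT, the D-box TTATGTAA bound by Dbp and its relatives, and the receptor half-site AGGTCA. The half-site is only a part of the element bound by the REV-ERB receptors. A motif that lies on the other strand is capitalised in its reverse complement, and no capitalised motif overlapped another.
Nr1d1 (chr11:98775328-98775627, minus strand): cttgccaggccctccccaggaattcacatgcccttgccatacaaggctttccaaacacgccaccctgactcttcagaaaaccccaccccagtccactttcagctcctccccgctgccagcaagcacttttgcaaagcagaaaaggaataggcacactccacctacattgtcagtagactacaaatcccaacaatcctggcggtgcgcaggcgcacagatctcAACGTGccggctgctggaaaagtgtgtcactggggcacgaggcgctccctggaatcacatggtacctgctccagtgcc
Per1 (chr11:69098699-69098998, plus strand): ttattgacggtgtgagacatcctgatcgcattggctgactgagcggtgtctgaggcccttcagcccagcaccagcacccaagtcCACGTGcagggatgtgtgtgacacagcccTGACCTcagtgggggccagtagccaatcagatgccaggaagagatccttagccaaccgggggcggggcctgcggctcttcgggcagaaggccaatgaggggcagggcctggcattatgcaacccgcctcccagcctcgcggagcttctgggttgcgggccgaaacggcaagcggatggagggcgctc
Cry1 (chr10:85185005-85185304, minus strand): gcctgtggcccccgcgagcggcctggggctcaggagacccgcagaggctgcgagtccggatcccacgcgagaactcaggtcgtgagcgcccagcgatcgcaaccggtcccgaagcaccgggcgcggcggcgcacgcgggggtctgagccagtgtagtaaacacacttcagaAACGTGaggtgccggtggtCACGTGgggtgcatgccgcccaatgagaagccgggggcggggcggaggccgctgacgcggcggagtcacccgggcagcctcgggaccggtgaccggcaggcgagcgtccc
Per3 (chr4:151044616-151044915, minus strand): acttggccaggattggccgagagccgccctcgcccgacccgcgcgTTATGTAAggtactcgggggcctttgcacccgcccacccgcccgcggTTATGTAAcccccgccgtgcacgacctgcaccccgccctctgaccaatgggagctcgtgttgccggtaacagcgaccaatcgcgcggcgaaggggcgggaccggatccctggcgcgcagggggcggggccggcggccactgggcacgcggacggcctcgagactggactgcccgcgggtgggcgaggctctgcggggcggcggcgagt
Arntl (chr7:113207261-113207560, plus strand): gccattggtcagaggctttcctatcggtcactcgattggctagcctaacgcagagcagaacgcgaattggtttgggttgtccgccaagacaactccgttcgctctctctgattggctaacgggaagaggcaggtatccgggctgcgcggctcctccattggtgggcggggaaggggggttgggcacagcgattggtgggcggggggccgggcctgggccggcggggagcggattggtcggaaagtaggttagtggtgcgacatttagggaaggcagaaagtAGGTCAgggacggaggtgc

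Positions are counted from the transcript start, negative before it. Per1 carried an E-box at -166 to -161 and a receptor half-site closer to the start. Cry1 carried the E-box variant at -79 to -74 and an E-box at -60 to -55. The Nr1d1 window held the E-box variant at -28 to -23, and that of Per3 held D-boxes at -205 to -198 and at -158 to -151. In Arntl the receptor half-site lay at 31 to 36, just after the start. Among the members that are not printed, single receptor half-sites were found in Nr1d2 and Clock, whereas the windows of Npas2 and Dbp held none of these letters. In all, 7 of the 13 windows held a motif, and the other windows of Arntl, Per1 and Clock held none. Over all 32851 RefSeq windows of that length, 7.15% held the E-box, 4.68% the variant, 0.938% the D-box and 16.3% the receptor half-site. A match of letters is a description and not a measured binding site.

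The tumours came from mice labelled C57BL/6 (C57BL6/J in the protocol text) given an adenovirus in which the CC10 promoter, active in the secretory club cells of the bronchioles, drives Cre recombinase (Ad5CC10-Cre). All animals carried a Cre-dependent oncogenic allele and floxed p53 on both copies (KP). The 5 control libraries were labelled heterozygous fl/wt for Glut1, and the 5 Glut1-KO libraries came from KPG1 animals, in which both copies of Glut1 (gene Slc2a1) were floxed. Tumours were macrodissected 20 weeks and 1 day after initiation, dissociated and depleted of cells bearing CD45, and polyadenylated RNA of what remained was sequenced, so that the libraries held tumour cells together with any other CD45- cells. All 5 control libraries were male, whereas Glut1-KO replicates 1 to 3 were female and replicates 4 and 5 male. The deposited names carry a further number, possibly a mouse, which control replicates 1, 2 and 5 shared, as did control replicates 3 and 4 and Glut1-KO replicates 4 and 5. No label gives the hour of collection. Ages of the animals were not used here.

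Library totals ran from 35.251 to 49.76 M counts (M, 1e6), and no member had fewer than 105 counts in a library. Levels are given as counts per M (CPM) scaled by the trimmed mean of M-values (TMM). Slc2a1, the deleted gene, lay at 118, 86.7, 92.6, 103.5 and 73.2 CPM in control replicates 1 to 5 and at 60.3, 42.5, 34.6, 92.4 and 102.9 CPM in the Glut1-KO libraries, so replicates 4 and 5 of the latter stood within the control range and went against their label. The groups are therefore called by their labels throughout. The defining markers of the alveolar type 2 cell, such as Sftpc, were abundant and summed to between 23260 and 67290 CPM in the controls and between 44540 and 61620 CPM in the Glut1-KO-labelled libraries. Club cell markers summed to between 2078 and 11770 CPM and between 3000 and 8952 CPM.

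Nr1d1 and Per2 moved in opposite directions between the groups and Dbp followed Per2, yet the differences did not pass the threshold once all genes were considered. Mean Nr1d1 was 0.643 times, mean Per2 1.84 times and mean Dbp 1.72 times the control mean in the Glut1-KO-labelled libraries (n = 5 per group). The activators Arntl, Clock and Npas2 had log2 fold changes from -0.001 to 0.15. With limma, 0 of the 10 members were called at an adjusted p under 0.05, as were 0% of all genes tested, and 3 members had an unadjusted p under 0.05 against 7.68% of all genes (Per2 and Dbp higher, as 3.66% were, and Nr1d1 lower, as 4.02% were). DESeq2 called 0 members against 1.32% of all genes, and edgeR called 0 members against 0%. By sign, 7 members lay above and 3 below 0, and their log2 fold changes had a median of 0.12. Of all genes tested 7849 lay above and 8073 below, around a median of -0.0049. In simulated data of this size, limma recovered 4% of genes changed 1.5-fold and 34% of those changed 2-fold. The p-values measure the spread between these libraries, which may in part be technical or come from 1 animal.

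**Figure D1:**
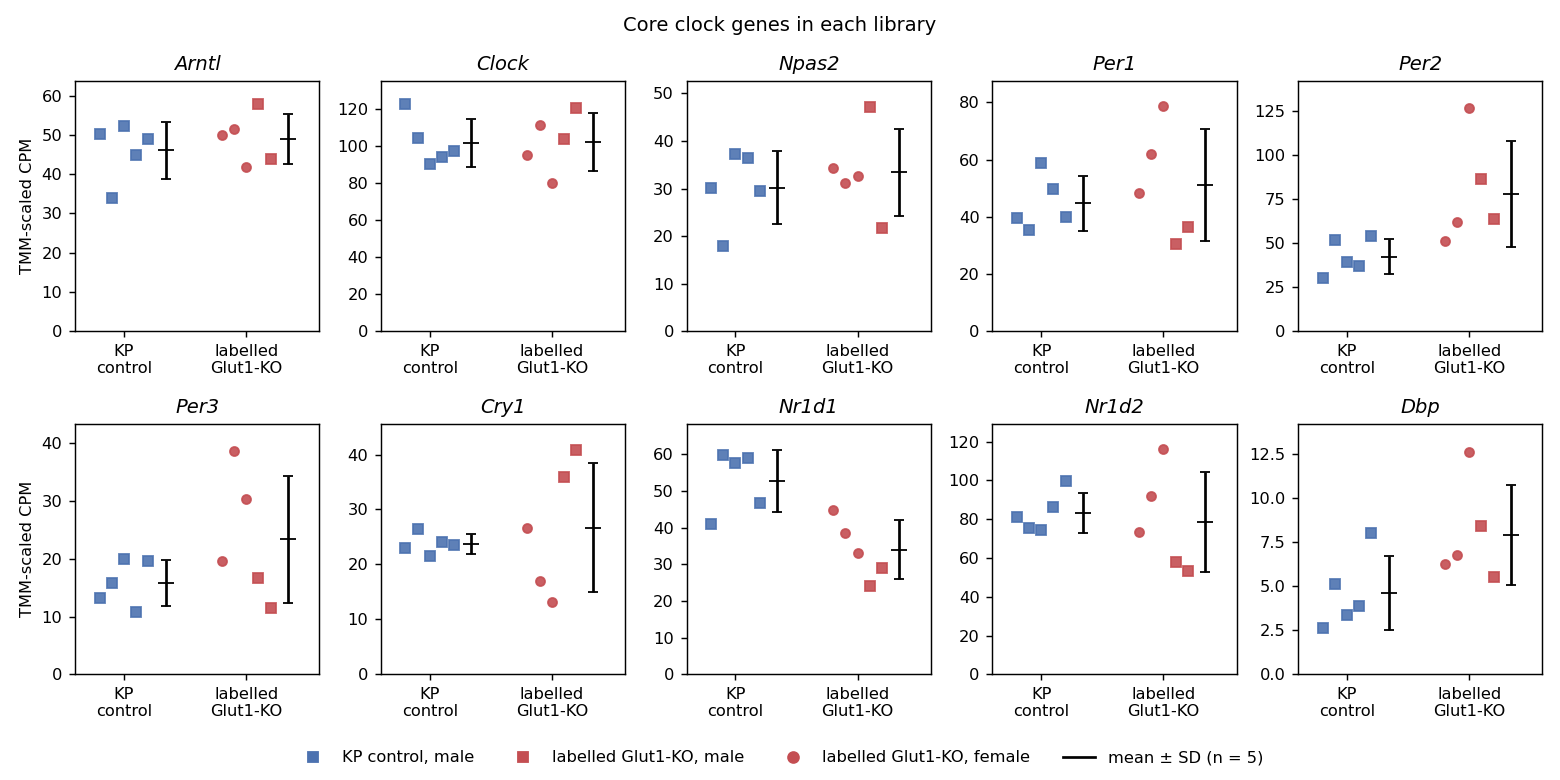
Level of each core clock gene in each library, in TMM-scaled CPM on a linear axis from 0. Blue squares are the 5 male KP controls, red squares and circles the male and female libraries labelled Glut1-KO in replicate order, and bars give the mean ± SD; Nr1d1 lies lower and Per2 higher on the right of their panels, while Cry1 spreads from 13.2 to 40.8 CPM among the libraries labelled Glut1-KO.

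Nr1d1 encodes the receptor that represses Arntl and reads the activity of the Arntl and Clock pair. Its level was 40.9, 59.8, 57.7, 58.9 and 46.6 CPM in control replicates 1 to 5. It was 44.8, 38.5, 33.2, 24.2 and 29.0 CPM in the Glut1-KO-labelled libraries. Of these, 4 of 5 lay below every control, an arrangement found in that direction in 4.06% of all genes, and only replicate 1 overlapped the control range. The control mean of 52.8 ± 8.50 CPM (SD, n = 5) stood against 33.9 ± 8.04 CPM. Its log2 fold change was -0.65 (SE 0.18, 95% interval -1.04 to -0.26), with a limma adjusted p of 0.419. The exact permutation test over libraries gave a 2-sided p of 0.0159 and 0.484 after adjustment over all genes, where the smallest p that 5 against 5 allows is 0.00794. After adjustment no gene had an exact p below 0.431, so this test could call no gene, here or for the members below. Across the other ways of fitting, the log2 fold change ran from -0.97 to -0.44 and the adjusted p from 0.08 (DESeq2) to 0.714. Of the 3077 exonic bases of Nr1d1, 263 (8.55%) also lie in Thra, which is transcribed from the opposite strand. The paper names a stranded library kit, but the use of strand in counting is not given in the sources used here. Some Nr1d1 reads therefore cannot be placed with certainty. Thra had a log2 fold change of 0.20 (SE 0.33).

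Nr1d2 encodes the other REV-ERB receptor. It was measured at 81.1, 75.3, 74.2, 86.3 and 99.8 CPM in the controls and at 73.5, 92.0, 116.2, 57.9 and 53.2 CPM in the Glut1-KO-labelled libraries. The latter spread to both sides of the controls, with 3 below and 1 above all of them, and the share of all genes spread this way was not counted. The log2 fold change was -0.13 (SE 0.20, 95% interval -0.58 to 0.32) with a limma adjusted p of 0.895. It depended on the libraries compared, with -0.58 in male libraries alone (adjusted p 0.403), where the groups did not overlap, and 0.16 with the female Glut1-KO libraries.

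Per2 is the Period repressor that also answers acute signals. Control replicates 1 to 5 held 30.3, 51.6, 39.1, 36.8 and 53.9 CPM. The libraries labelled Glut1-KO held 51.2, 62.0, 126.7, 86.5 and 63.9 CPM. Here too 4 of 5 lay beyond every control, this time above, which 3.52% of all genes did, and replicate 1 was again the exception. The mean went from 42.3 ± 10.1 to 78.1 ± 30.1 CPM (SD, n = 5), and the highest library, replicate 3, held more than any other by a wide margin. The log2 fold change was 0.83 (SE 0.25, 95% interval 0.28 to 1.39), with a limma adjusted p of 0.449. The exact permutation test gave a 2-sided p of 0.0238 and 0.514 after adjustment over all genes. Other fits placed the fold change between 0.63 and 0.97 with adjusted p between 0.0696 (DESeq2) and 0.771.

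The other Period genes did not separate. Per1, the most stimulus-responsive of them, was at 39.8, 35.3, 58.9, 49.6 and 39.9 CPM in the controls and at 48.3, 61.9, 78.6, 30.7 and 36.4 CPM in the Glut1-KO-labelled libraries, with a log2 fold change of 0.15 (SE 0.25, 95% interval -0.40 to 0.71, limma adjusted p 0.905). Per3 was at 13.3, 15.9, 19.9, 10.8 and 19.6 CPM and at 19.6, 38.7, 30.3, 16.8 and 11.5 CPM, with a log2 fold change of 0.47 (SE 0.33, 95% interval -0.25 to 1.19, limma adjusted p 0.762). The Per3 value ranged from 0.25 without Glut1-KO replicate 2 to 0.71 without Glut1-KO replicate 5. The sign of both genes depended on the libraries compared. Among males alone Per1 was at -0.38 and Per3 at -0.19, and with the female Glut1-KO libraries they were at 0.50 and 0.88. The male Glut1-KO libraries also shared a name number and a Slc2a1 level within the control range, so sex cannot be told apart from these. In both genes replicates 2 and 3 of the Glut1-KO group were above every control and replicates 4 and 5 were not.

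Cry1, the late repressor of the loop, gave the least scattered controls and a wide Glut1-KO group. The controls lay at 22.9, 26.5, 21.5, 24.1 and 23.5 CPM. The libraries labelled Glut1-KO lay at 26.7, 17.0, 13.2, 35.9 and 40.8 CPM, 3 of them above and 2 below every control. Replicate 1 was only just above, at 26.66 against a highest control of 26.45 CPM. The share of all genes with such an arrangement was not counted. The SD was 1.81 CPM in the controls and 11.8 CPM in the other group, around means of 23.7 and 26.7 CPM, a ratio of 1.13. The limma log2 fold change, a difference of mean log values, was 0.0284 (SE 0.28, 95% interval -0.60 to 0.66, limma adjusted p 0.987). Among male libraries alone it was 0.69 (adjusted p 0.323), and with the female Glut1-KO libraries it was -0.39. The difference in spread was not tested.

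Dbp encodes a transcription factor that acts at D-boxes and is a direct output of the Arntl and Clock pair. Its level was low, at 2.66, 5.12, 3.36, 3.87 and 8.01 CPM in the controls. In the libraries labelled Glut1-KO it was 6.28, 6.78, 12.6, 8.40 and 5.50 CPM. All 5 exceeded 4 of the controls, but control replicate 5 stood above 3 of them, so the groups overlapped. The log2 fold change was 0.81 (SE 0.32, 95% interval 0.0979 to 1.53), with a limma adjusted p of 0.61, and the exact permutation test gave a 2-sided p of 0.0476 and 0.598 after adjustment over all genes. Dbp shares 539 of 2993 exonic bases (18.0%) with Sphk2 on the opposite strand, whose log2 fold change was 0.0013 (SE 0.14). Over all libraries Sphk2 held 20236 counts against 2623 for Dbp. The use of strand in counting is not given, so some Dbp reads cannot be placed with certainty either.

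Among the activators, Clock and Arntl varied least over the libraries and Npas2 varied more. Arntl was at 50.1, 33.8, 52.3, 44.9 and 49.1 CPM in the controls and at 50.03, 51.6, 41.8, 57.8 and 43.9 CPM in the Glut1-KO-labelled libraries, with a log2 fold change of 0.0984 (SE 0.15, 95% interval -0.22 to 0.42, limma adjusted p 0.891). Clock was at 123.1, 104.5, 90.2, 94.4 and 97.4 CPM and at 95.3, 111.3, 79.9, 103.8 and 120.8 CPM, with a log2 fold change of -0.001 (SE 0.13, 95% interval -0.29 to 0.29, limma adjusted p 0.999). Npas2, which can stand in for Clock, was at 30.1, 17.9, 37.2, 36.4 and 29.5 CPM and at 34.3, 31.2, 32.5, 47.2 and 21.8 CPM, with a log2 fold change of 0.15 (SE 0.24, 95% interval -0.38 to 0.68, limma adjusted p 0.898). In each of the 3 genes the groups overlapped nearly throughout. Control replicate 2 was the lowest of the controls for both Arntl and Npas2, and without it their log2 fold changes turned to -0.0137 and -0.0421. Without Glut1-KO replicate 5 that of Npas2 was 0.31.

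Groups that did not overlap at all were found for 0 of the 10 members, against 1.85% of all genes tested (0.798% higher and 1.06% lower). The count turned on single libraries. Without control replicate 1 it was 1 (Nr1d1; background 2.92%), without control replicate 5 it was 1 (Dbp; background 2.92%), and without Glut1-KO replicate 1 it was 2 (Per2 and Nr1d1; background 2.82%). With libraries summed by the number in their names, 2 against 4, it was 3 (Per2, Nr1d1 and Dbp; background 15.1%), and among male libraries alone, 5 against 2, it was 4 (Per2, Cry1, Nr1d1 and Nr1d2; background 17%).

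**Figure D2:**
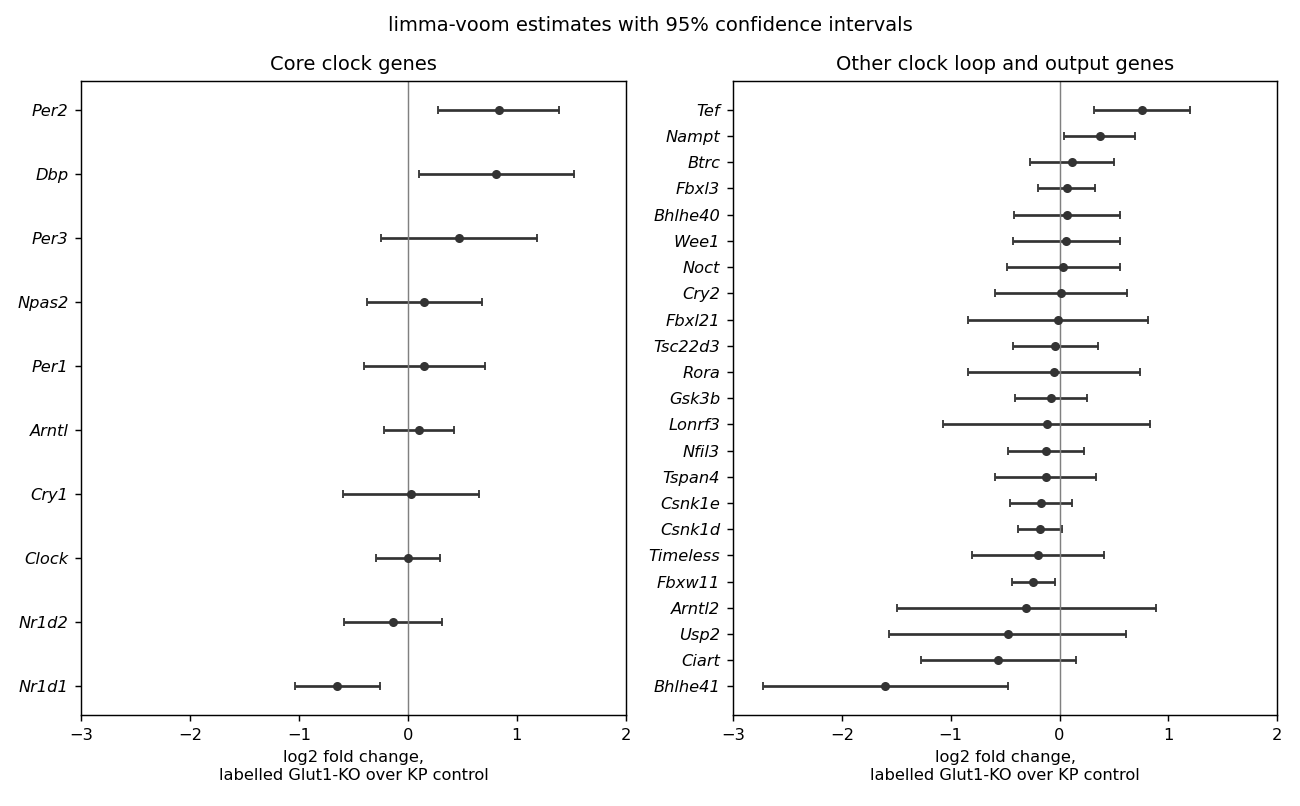
Log2 fold change of the libraries labelled Glut1-KO over the KP controls from limma-voom, with 95% confidence intervals, for the 10 core clock genes (left) and 23 other clock genes (right); points to the right of 0 are higher in the Glut1-KO group. The intervals of Per2, Dbp and Nr1d1 exclude 0 before adjustment, and those of the 3 activators are centred near 0.

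Compared per exonic length, in reads per kilobase and M counts (RPKM), the members formed 2 tiers. Means over the 10 libraries were 14.96 ± 3.47 for Nr1d2, 14.1 ± 4.11 for Nr1d1, 10.3 ± 4.84 for Per2, 8.51 ± 2.64 for Per1, 7.55 ± 2.43 for Cry1, 7.44 ± 0.986 for Clock, 6.64 ± 1.70 for Npas2, 6.32 ± 0.889 for Arntl, 2.09 ± 0.98 for Dbp and 2.04 ± 0.908 RPKM for Per3 (SD, n = 10). The median over all genes tested was 5.34 RPKM, so 8 members lay above it and Dbp and Per3 below. Only the step from Arntl to Dbp separated neighbours in all 10 libraries. The other neighbouring pairs kept their order in 5 to 7 of the 10 and did not differ beyond their spread. Per2 took different places in the groups, with 7.23 ± 1.72 RPKM in the controls, below Per1 and Clock, and 13.3 ± 5.14 RPKM in the Glut1-KO-labelled libraries, above Nr1d1 at 11.03 ± 2.61. Over the 10 libraries Dbp ranged 4.75-fold from lowest to highest, Per2 4.19-fold and Per3 3.59-fold, whereas Clock ranged 1.54-fold and Arntl 1.71-fold.

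Because the hour of collection is not labelled, the opposed limbs of the loop were read in each library as a check on it. An index was formed as the mean log2 CPM of Arntl and Npas2 minus that of Nr1d1, Nr1d2, Dbp and Per3, which is higher where the Arntl limb is ahead. It was 1.07, -0.002, 0.93, 0.91 and 0.38 in control replicates 1 to 5. In the libraries labelled Glut1-KO it was 0.71, 0.37, 0.0804, 1.31 and 0.81. The group means of 0.66 ± 0.45 and 0.66 ± 0.47 (SD, n = 5) differed by -0.002, less than the spread within either group. Leaving out 1 library moved that difference to between -0.17 (without control replicate 2) and 0.14 (without Glut1-KO replicate 3), and with 9 members in the limbs it was -0.16. Arntl minus Dbp alone was 3.41 ± 0.72 in the controls and 2.68 ± 0.54 in the other group, a difference of -0.73 with groups that overlapped. Among the controls, libraries that shared a name number differed in the index by 0.54 on average (4 pairs) and those that did not by 0.54 (6 pairs). By the index, control libraries with a common number were thus no closer. Single members went both ways on the log2 scale, Per1 being closer within a number (0.15 against 0.50) and Arntl not (0.34 against 0.25). Among male libraries alone the index was 0.40 higher in the Glut1-KO-labelled libraries, and between female Glut1-KO libraries and the controls it was 0.27 lower (-0.27).

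The index hid opposed moves of its own members, Nr1d1 being lower and Dbp higher. The difference of Per2 and Nr1d1, chosen after their values were seen and so given without a test, was -0.44, -0.21, -0.56, -0.68 and 0.21 on the log2 scale in the controls. It was 0.19, 0.69, 1.93, 1.84 and 1.14 in the Glut1-KO-labelled libraries, 4 of which lay above every control. Its group means were -0.34 ± 0.35 and 1.16 ± 0.74. The same subtraction for Dbp and Nr1d1 gave -3.61 ± 0.63 and -2.13 ± 0.63, while Per2 minus Dbp was nearly constant at 3.27 ± 0.32 and 3.29 ± 0.19. Hour of collection and group cannot be told apart in this design, nor, in bulk tissue, can a change in the phase of the clock be told apart from a change in the level of single members, or fewer cells of a type from less RNA per cell.

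**Figure D3:**
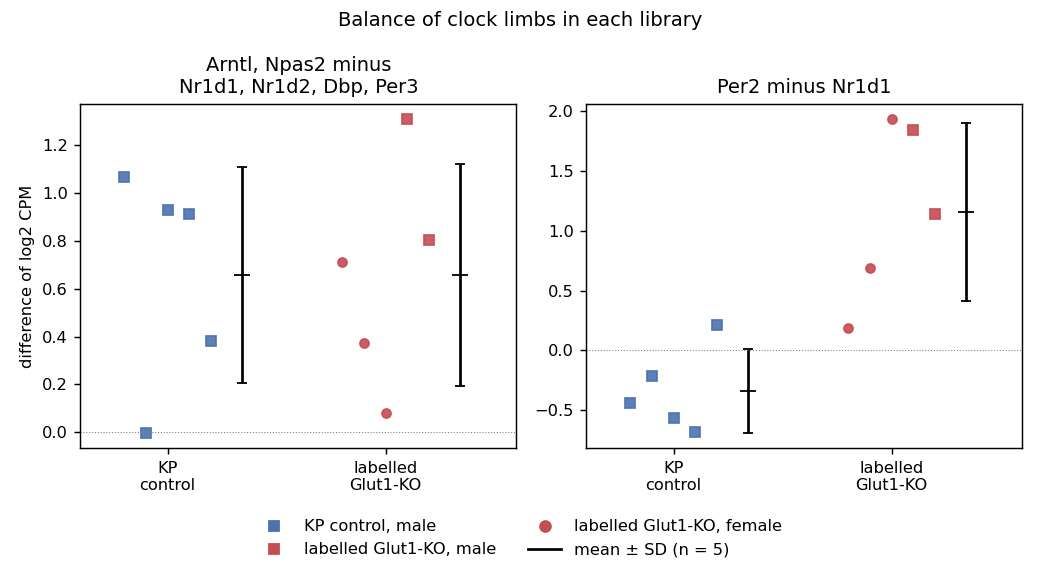
Differences of log2 CPM between clock genes in each library, for the Arntl and Npas2 limb minus the Nr1d1, Nr1d2, Dbp and Per3 limb (left) and for Per2 minus Nr1d1 (right), with the mean ± SD of each group. The left groups overlap with means of 0.66 in both, and on the right 4 of the 5 libraries labelled Glut1-KO lie above every control.

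Relations among members were examined over the 10 libraries in all 45 pairs, of which 22 had a positive and 23 a negative Pearson's r. In all, 3 pairs passed by Pearson's r with adjustment over the 45, while 0 passed by Spearman's rho. Per2 and Dbp rose and fell together (r = 0.931, permutation p = 8e-05, adjusted 0.0036; rho = 0.879, permutation p = 0.00158, adjusted 0.0711). Cry1 ran opposite to Nr1d2 (r = -0.911, permutation p = 0.00085, adjusted 0.0128; rho = -0.806, permutation p = 0.00768, adjusted 0.115). It also ran opposite to Per1 (r = -0.869, permutation p = 0.00083, adjusted 0.0128; rho = -0.806, permutation p = 0.00675, adjusted 0.115). With the other early members Cry1 had r of -0.718 (Per3, permutation p = 0.019, adjusted 0.171; -0.819, adjusted 0.0442, when centred on the group means), -0.267 (Nr1d1), -0.229 (Dbp) and -0.186 (Per2). Nr1d1 and Nr1d2 had r = 0.345 (permutation p = 0.33, adjusted 0.706).

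Centred on the group means, r was 0.88 for Per2 and Dbp, -0.922 for Cry1 and Nr1d2 and -0.893 for Per1 and Cry1. Without the 2 libraries farthest from the median of the gene named first (Per2, Cry1 and Per1), the same pairs gave 0.828, -0.764 and -0.702, and none passed the adjustment. Over means of the 6 name numbers they gave 0.968, -0.978 and -0.934. With 6 points the smallest permutation p is 0.00139, which for a lone pair adjusts to 0.0625, so the adjusted test could not be passed by a lone pair there. Arntl and Npas2, both repressed by the REV-ERB receptors, had r = 0.815 (permutation p = 0.00488, adjusted 0.0549), 0.807 when centred on the group means (adjusted 0.0482), 0.74 without the 2 farthest libraries (adjusted 0.224) and 0.407 over the name numbers. Per2 and Nr1d1 had r = -0.659 (permutation p = 0.0369, adjusted 0.22), and -0.217 once centred on the group means, -0.786 over the name numbers and -0.902 without the 2 farthest libraries (permutation p = 0.00181, adjusted 0.0815).

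**Figure D4:**
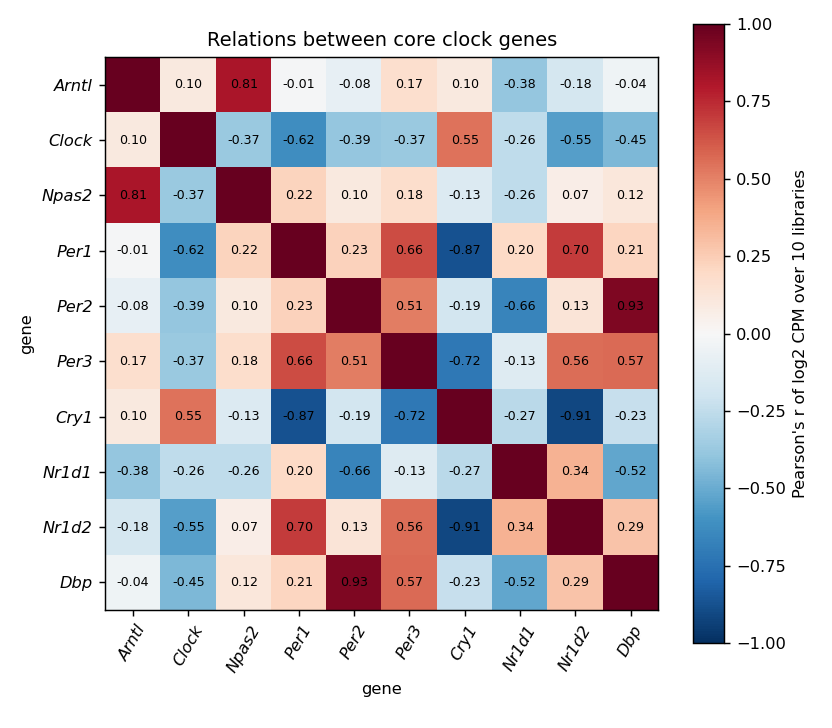
Pearson's r of log2 CPM between every pair of core clock genes over the 10 libraries, from blue (negative) to red (positive), with the value written in each square. Per2 with Dbp (0.93) is the most positive square, and Cry1 with Nr1d2 (-0.91) and with Per1 (-0.87) are the most negative.

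**Figure D5:**
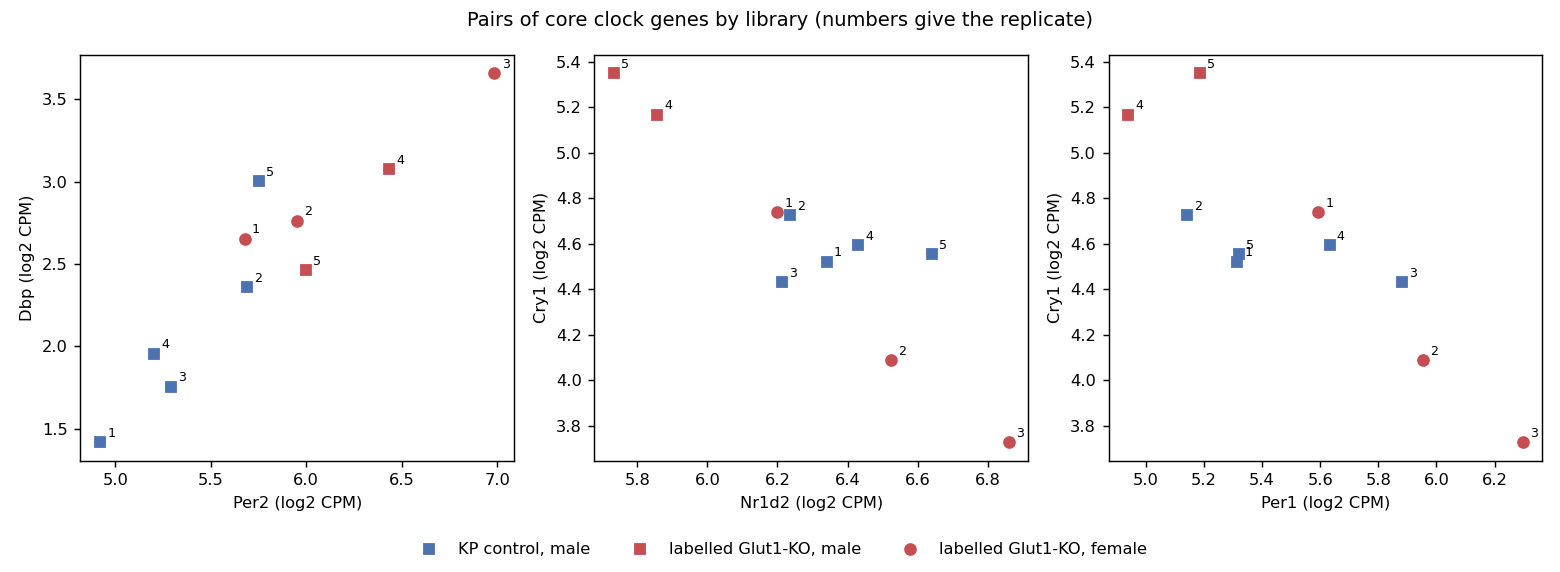
Log2 CPM of 3 gene pairs, 1 point per library with its replicate number (squares male, circles female). In the Cry1 panels the male libraries labelled Glut1-KO (replicates 4 and 5) and the female replicates 2 and 3 take opposite ends, while female replicate 1 lies beside the controls, just above the highest of them in Cry1.

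Within the Glut1-KO-labelled libraries, males and females did not overlap for 5 of the 10 members, against 40.8% of all genes with groups of 2 and 3, so the share was near the background. Per1, Per3, Nr1d1 and Nr1d2 were lower in the 2 males, with male minus female differences of -0.88, -1.03, -0.54 and -0.73 on the log2 scale. Cry1 was higher in them by 1.07. The males also shared a name number and a Slc2a1 level within the control range, so that sex, that number and the extent of Glut1 loss cannot be told apart here. All controls were male, so with sex as a covariate the group effect compared only these 2 males with them. The log2 fold changes of Per1 and Per3 then changed sign, to -0.38 and -0.19. That of Cry1 went from 0.0284 to 0.69, that of Nr1d2 from -0.13 to -0.58 and that of Nr1d1 from -0.65 to -0.97, with limma adjusted p of 0.343, 0.352 and 0.222, while Per2 stayed at 0.83.

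Of 26 further genes of the clock loops and outputs, 24 were tested (Rorb and Hlf were too low), 9 lying above and 15 below 0 around a median of -0.0655 (log2). With limma 0 were called and 5 had an unadjusted p under 0.05 (20.8%, against 7.68% of all genes). The edgeR test called 0 and DESeq2 called 1, Tef (1.32% of all genes). Tef, a relative of Dbp that acts at the same D-boxes, went from 38.9 ± 7.49 to 66.8 ± 18.4 CPM with 4 of 5 libraries above every control, as in 3.52% of all genes (log2 fold change 0.76, SE 0.20, limma adjusted p 0.396, DESeq2 adjusted p 0.0307). Nampt, a clock output that makes a precursor of NAD, went from 80.8 ± 16.4 to 103.2 ± 11.9 CPM (0.37, SE 0.15, limma adjusted p 0.612).

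Bhlhe41, a repressor of the Arntl and Clock pair also called Dec2, went from 7.56 ± 5.19 to 2.35 ± 1.40 CPM with 4 of 5 libraries below every control, as in 4.06% of all genes (log2 fold change -1.60, SE 0.51, limma adjusted p 0.482). Fbxw11, part of a ligase that marks Per proteins for degradation, went from 147 ± 11.1 to 124.1 ± 5.35 CPM with all 5 below (-0.24, SE 0.0893, limma adjusted p 0.57). Besides Fbxw11, Csnk1d, a kinase of the Per proteins named after its values were seen, was the only other listed gene whose groups did not overlap (1.06% of all genes in that direction), at 199.7 ± 11.5 and 176.2 ± 12.9 CPM (-0.18, SE 0.092, limma adjusted p 0.682). Nfil3, which opposes Dbp and Tef at D-boxes, had a log2 fold change of -0.12 (SE 0.16), and Cry2, the second cryptochrome, a value of 0.0136 (SE 0.28).

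In some other gene lists most log2 fold changes shared a sign. Early response genes induced when tissue is dissociated, such as Fos and Jun, were lower in 12 of 13 cases with a median log2 fold change of -0.36, and summed to between 5703 and 6827 CPM in the controls and between 3352 and 5742 CPM in the Glut1-KO-labelled libraries. Leukocyte markers, Ptprc (the gene of CD45) among them, were higher in 6 of 6 with a median of 0.97, at sums of 24.4 to 30.55 and 30.64 to 52.6 CPM. Endothelial markers were higher in 6 of 6 with a median of 0.66, at overlapping sums of 71.4 to 270 and 107.2 to 380.7 CPM. No gene of these lists was at 0 in all libraries, and limma and edgeR called 0 of them, while 6 early response, 4 leukocyte and 1 endothelial gene had an unadjusted limma p under 0.05 (7.68% of all genes) and DESeq2 called 3, 4 and 0 of these lists (1.32% of all genes). Their part in the differences of Nr1d1, Per2 and Dbp was not tested.

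Genes induced by glucocorticoids, which also induce Per1 and Per2, did not share a direction. Of 7 such genes 3 lay above 0 and 4 below, around a median of -0.024. With limma 0 were called and 3 had an unadjusted p under 0.05 (7.68% of all genes), edgeR called 0 and DESeq2 called 1, Sgk1 (1.32% of all genes). Sgk1 had a log2 fold change of -1.24 (limma adjusted p 0.369, DESeq2 adjusted p 0.00959) with all 5 libraries below every control, as in 1.06% of all genes. Fkbp5 had a value of 0.66 (limma adjusted p 0.454, DESeq2 adjusted p 0.0611). Zbtb16, with a control mean of 0.64 CPM, had a value of 0.87 (limma adjusted p 0.677). In both, 4 of 5 libraries lay above every control, as in 3.52% of all genes. Ddit4 had a value of -0.54 (limma adjusted p 0.555), Errfi1 of 0.0489, Tsc22d3 of -0.038 and Klf9 of -0.024. Ciliated cell markers had negative log2 fold changes for all 5 found of the 6 listed, with a median of -0.70 but 0 at an unadjusted limma p under 0.05, 0 called by limma or edgeR and 1 by DESeq2, at sums of 9.24 to 207.6 CPM and 13.1 to 50.1 CPM. Proliferation genes had negative values for 5 of 6 with a median of -0.15, and 0 had an unadjusted limma p under 0.05 or were called by limma, edgeR or DESeq2.

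Genes outside the clock lists were ranked by how closely their standardized level followed the mean profile of Nr1d1, Nr1d2, Dbp and Per3 over the 10 libraries. The nearest of 13825 candidates were Dcp1a, Chd6, AW146154, 2500004C02Rik and Spata7, at mean absolute differences of 0.19, 0.21, 0.21, 0.22 and 0.23 SD, where the median candidate was at 1.10. Their ratios of Glut1-KO to control means were 1.04, 1.01, 1.02, 1.21 and 1.15. The 4 genes that made the profile were themselves at 0.37 (Nr1d2), 0.51 (Per3), 0.72 (Dbp) and 0.99 (Nr1d1), so Nr1d1 followed the mean of its own limb little better than the median candidate did, with 38.3% of candidates nearer. Per1, which did not enter the profile, was at 0.59 and Per2 at 0.89.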

How the data were processed

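Polyadenylated RNA was sequenced from 10 libraries, 5 per group, from 35.251 to 49.76 M counts (M, 1e6) each. In the deposited files each Ensembl gene has its raw read count. Per the labels' processing notes the authors used bcl2fastq 2.17, cutadapt 1.4.2, HISAT2, featureCounts 1.4.4 and edgeR with build mm10. The paper names a stranded kit for the libraries, but the strand setting in counting and the annotation release are not given in the sources used here. The 10 single files equalled the columns of the combined table. A further deposited table of log2 values, scaled by the authors, was not used.

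Counts were analysed in R 4.3.3. The edgeR 4.0.16 filterByExpr step (minimum count 10, minimum total 15) left 15922 genes, to which TMM scaling, voom (prior count 0.5) and a limma 3.58.1 model of group alone were applied, as the study's methods name these tools. The paper instead removed genes with a mean TPM under 20, a filter used here only as an alternative. That filter leaves out Per3 and Dbp. P-values were adjusted by Benjamini-Hochberg over all genes tested at a threshold of 0.05. DESeq2 1.42.0, edgeR's quasi-likelihood test, RLE scaling, library totals, no filter, a mean TPM of at least 20, sex, name number, a replicate block and leaving out each library were alternatives. Single members had a 2-sided exact permutation test over libraries, and pairs a permutation test with 100000 resamples (Python 3.11.15, SciPy 1.17.1). Exon lengths came from GENCODE on GRCm38, the assembly of mm10, matching 37693 (96.6%) of 39017 identifiers; RPKM is TMM-scaled CPM per kilobase of exon. The fit was tested on simulated counts.

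Besides the 10 members and Slc2a1, the named genes were other clock genes with an unadjusted p under 0.05 (1 of them is not reported here) and the 5 outside genes nearest in profile, of a mean CPM of at least 1; listed genes named beyond these (Csnk1d, Nfil3, Cry2, the glucocorticoid genes, Thra and Sphk2) were added after their values were seen. The members and lists were chosen with earlier results of these data known.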

Additional observations from a re-analysis of the deposited data

How the results depend on the processing

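Over 22 other ways of fitting, Nr1d1, Per2 and Dbp kept their direction, and 0 of the 10 members passed the adjusted threshold; 27 of 218 member values changed sign, all in the other 7 genes, whose cause was not tested. Apart from fits without 1 library, the positive values for Clock were 0.0098 (DESeq2), 0.0045 (edgeR), 0.0033 (RLE), 0.0017 (mean TPM of at least 20), 0.0301 (summed by name number), 0.15 (male libraries) and 0.15 (sex as a covariate). Per1 was -0.38 and Per3 -0.19 both in male libraries and with sex as a covariate. These fits are not separate checks, since all controls were male and both compare only the male Glut1-KO libraries with them. Cry1 was -0.39 and Nr1d2 0.16 with female Glut1-KO libraries, and -0.0102 and 0.0067 when summed by name number, whereas male libraries gave Cry1 0.69 and Nr1d2 -0.58 and sex as a covariate 0.69 and -0.58. Leaving out 1 library at a time gave ranges of -0.0137 to 0.15 for Arntl, -0.0546 to 0.0849 for Clock, -0.0421 to 0.31 for Npas2, -0.0259 to 0.31 for Per1, 0.25 to 0.71 for Per3, -0.16 to 0.26 for Cry1 and -0.29 to 0.0022 for Nr1d2. Groups did not overlap for 3 members with libraries summed by name number (15.1% of all genes) and for 4 in male libraries (17%). With 1 library left out the number was 0 to 2, and the fits that gave 1 or 2 had backgrounds of 2.82% to 2.92%. DESeq2 called 1 of the other clock genes (1.32% of all genes). The limb index differed by -0.73 as Arntl minus Dbp and by 1.49 as Per2 minus Nr1d1, the latter chosen after seeing the data. Pairs past the adjusted threshold were 5 centred on groups and 0 without the 2 farthest libraries; the 0 over name numbers says nothing of stability, since with 6 points a lone pair cannot go below an adjusted p of 0.0625. The TPM minimum left out Per3 and Dbp and so gave no index.

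Replicate numbers in the labels did not pair the libraries, since deviations from the group means correlated at 0.0417, -0.0883, 0.029, 0.20 and -0.13 for numbers 1 to 5 and for no number was the pair the best match of both its libraries. With a replicate block limma gave Nr1d1 -0.64 (adjusted p 0.556), Per2 0.84 (0.52) and Dbp 0.79 (0.689), an index difference of -0.002, and 0 genes called in all. Among all genes DESeq2 called 210, against 0 by limma and edgeR, 9 with female Glut1-KO libraries, 3 with sex as a covariate, 2 summed by name number, 1 in males and 1 without control replicate 3.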
